A study of Saccharomyces cerevisiae with 134 samples.

Results

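The 38 budding yeast genes described here are general stress genes of the kind induced through the transcription factors Msn2 and Msn4. They were chosen by gene ID, with no measured value in the rule but with earlier results of these data known. They exclude the trehalose, glycogen, pentose phosphate, chaperone and peroxidase genes that share this regulation. All 38 are among the 6692 genes of the RNA tables and 32 are among the 5355 genes of the H3K36me3 tables. They comprise 8 regulators and inhibitors (among them MSN2 and MSN4 themselves), 11 small stress or secreted proteins, 10 membrane, organelle and little-known proteins and 9 metabolic enzymes. All cells were of the BY4741 background at 30 °C. RNA was compared between 3 rph1Δ libraries, from cells without the demethylase Rph1, and 3 wild-type (WT) libraries, with both strains in YPD (rich medium). RNA was also followed in set2Δ cells expressing LANS-Set2, a fusion of the H3K36 methyltransferase Set2 to a light-activated nuclear shuttle, in SC−LEU (synthetic medium without leucine). One culture series went from dark to blue light (0, 20, 40 and 60 min, with 3, 3, 3 and 2 libraries) and the other from light to dark (0, 30, 60 and 90 min, with 3 libraries each). Trimethylated H3K36 (H3K36me3) was measured by ChIP-seq, with 3 libraries per time, in a light-to-dark course of set2Δ;rph1Δ LANS-Set2 cells and in dark-to-light and light-to-dark courses of the set2Δ LANS-Set2 cells. Every LANS-Set2 group, the 0 min controls included, thus lacks the chromosomal SET2 gene and has the fusion in its place. Strain, fusion and medium all differ between the rph1Δ and WT cells and the courses, so levels are not compared between them. No LANS-Set2 RNA series without a switch of light was analysed here, so time in culture and the switch cannot be told apart.

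Msn2 and Msn4 are zinc-finger activators that stay in the cytoplasm while protein kinase A and TOR are active. On stress or nutrient shortage they enter the nucleus and bind the stress response element, whose core is AGGGG, in front of genes for protectant proteins, enzymes and metabolic regulators. A related sequence, the post-diauxic shift element TAGGGAT, is recognised by Gis1. Rph1, besides its demethylase domain, carries zinc fingers that recognise an AGGGG-type sequence. Set2 travels with elongating RNA polymerase II, so that H3K36me3 is laid down over transcribed gene bodies.

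Most of the promoters hold the core of the stress response element. On the R64 genome, the assembly also called sacCer3 that the submitters' processing notes name, AGGGG on either strand was found at least once in the 500 bases before the start codon of 30 of the 38 members (78.9%), against 34.0% of the 6005 genes scanned. Of the members 20 had 2 or more matches, against 8.14% of genes, and HSP12 had the most with 5. TAGGGAT on either strand was found before ALD2 and ALD3 only, 2 of the 38 members, against 2.88% of genes. A match of one motif and a match of the other on the opposite strand can share at most 1 base. No AGGGG was present in that window of MSN2, MSN4, GRE1, ALD2, GRE2, RGI2, SPG4 or SPG1. A match is a string of letters and not a tested site, and some of these windows reach into the neighbouring gene. The members were chosen as genes of the kind induced through Msn2 and Msn4, which bind this element. Their share of matches is therefore not independent of that choice. Bases 400 to 101 before the start codon are shown for 5 members, in the direction of the gene, with AGGGG or its reverse complement CCCCT in capitals: DDR2, HSP12 and SIP18, which hold matches and had some of the largest RNA changes, SPG4, which had large changes and no match, and SPG1, which went against the other members after light.
DDR2 chrXV:231856-232155 (minus strand): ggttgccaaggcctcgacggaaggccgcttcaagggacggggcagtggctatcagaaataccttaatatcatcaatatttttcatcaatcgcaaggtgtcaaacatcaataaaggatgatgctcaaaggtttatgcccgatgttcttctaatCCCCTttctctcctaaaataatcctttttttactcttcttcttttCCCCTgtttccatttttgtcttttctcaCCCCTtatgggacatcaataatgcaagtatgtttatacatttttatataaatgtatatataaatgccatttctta
HSP12 chrVI:106856-107155 (plus strand): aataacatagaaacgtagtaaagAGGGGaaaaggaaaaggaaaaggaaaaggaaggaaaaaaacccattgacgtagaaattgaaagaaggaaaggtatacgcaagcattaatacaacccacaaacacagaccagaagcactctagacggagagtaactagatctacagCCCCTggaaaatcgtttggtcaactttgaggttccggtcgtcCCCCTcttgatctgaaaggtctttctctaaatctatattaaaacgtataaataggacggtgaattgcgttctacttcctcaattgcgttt
SIP18 chrXIII:610616-610915 (plus strand): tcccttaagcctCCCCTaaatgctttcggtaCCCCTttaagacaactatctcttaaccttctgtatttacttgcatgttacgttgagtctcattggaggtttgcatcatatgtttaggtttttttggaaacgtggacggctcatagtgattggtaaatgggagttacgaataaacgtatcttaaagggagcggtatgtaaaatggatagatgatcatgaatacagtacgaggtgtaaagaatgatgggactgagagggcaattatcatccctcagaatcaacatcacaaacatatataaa
SPG4 chrXIII:482614-482913 (plus strand): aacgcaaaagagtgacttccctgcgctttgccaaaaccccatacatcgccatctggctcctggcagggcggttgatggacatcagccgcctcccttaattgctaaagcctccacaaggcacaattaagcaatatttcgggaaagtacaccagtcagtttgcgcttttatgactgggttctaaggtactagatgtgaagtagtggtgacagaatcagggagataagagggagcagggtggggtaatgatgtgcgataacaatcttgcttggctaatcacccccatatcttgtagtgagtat
SPG1 chrVII:962918-963217 (minus strand): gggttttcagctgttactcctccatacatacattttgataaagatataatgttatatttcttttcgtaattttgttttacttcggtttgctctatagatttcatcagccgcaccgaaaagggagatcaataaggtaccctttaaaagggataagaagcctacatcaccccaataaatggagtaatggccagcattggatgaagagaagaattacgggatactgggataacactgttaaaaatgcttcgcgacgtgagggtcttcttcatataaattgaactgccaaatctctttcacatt
In these stretches DDR2 holds 3 matches, HSP12 holds 3 and SIP18 holds 2, while SPG4 and SPG1 hold none. A group of 5 members lies together on chromosome XIII, within bases 599352 to 611255, namely ALD3, ALD2, DDR48, PAI3 and SIP18. PAI3 and SIP18 point away from each other and share the 650 bases between them.

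**Figure D1:**
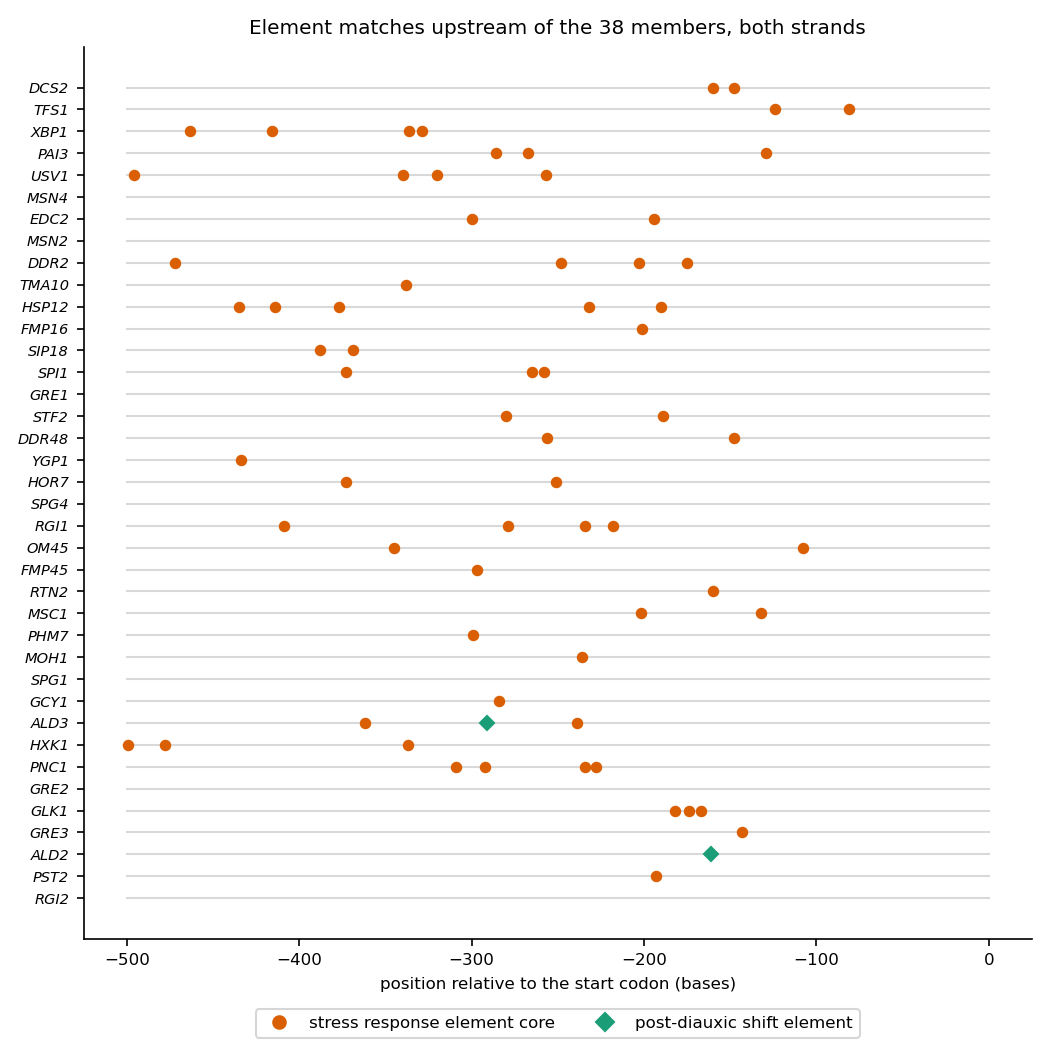
Position in bases relative to the start codon (x axis) of matches to the stress response element core (circles) and the post-diauxic shift element (diamonds) in the 500 bases before each of the 38 members (rows), on both strands. Matches are scattered over the window, most members have at least 1, and MSN2, MSN4, GRE1, GRE2, SPG4, SPG1 and RGI2 have none of either kind.

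The RNA libraries held 9295949 to 14334963 reads for rph1Δ and WT and 10551857 to 29032861 reads, recovered from the deposited TPM (transcripts scaled to length and depth), in the courses. The targeted gene RPH1 was at 0, 0.0170 and 0.0248 TPM in rph1Δ and 17.4, 15.9 and 15.6 TPM in WT. The a-cell gene STE2 was expressed and the deleted markers URA3 and MET17 were at or near 0 in all libraries, and LEU2 was at or near 0 in the libraries from YPD and high in the courses. No pair of replicates agreed within sampling noise (chi-square per degree of freedom of at least 2.29). The labels do not say that replicates were separate cultures, so p-values measure the spread between these libraries, which may be technical. In the light-to-dark RNA course the libraries of replicate 1 stood apart, with the SET2 transcript (in these cells the fusion) at 78.8 to 101 TPM, below the other libraries of that course at 119 to 172 TPM. Fewer cells that express a gene and less RNA per cell cannot be told apart in these bulk data.

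Dark to light. Many of the stress genes tested rose after light, and none was called lower with all libraries. SPG1 had values below 0 at each time, -0.41, -0.35 and -0.80 at 20, 40 and 60 min. At 40 min 14 of the 37 members tested passed the threshold (limma, Benjamini-Hochberg adjusted p under 0.05 over all genes) and all 14 were higher than at 0 min, where 3.54% of all genes were called higher and 0.254% lower. The median log2 change was 0.55 over the 37 members, each value being a difference on the log2(TPM + 1) scale, against 0.10 over the 5907 genes tested. All 3 libraries at 40 min were above all 3 at 0 min for 33 members, against 28.9% of genes, and 36 were above 0, against 75.1% of genes. The 14 were DDR2, TMA10, SPG4, HSP12, GCY1, RGI1, FMP45, RTN2, DCS2, TFS1, XBP1, MOH1, USV1 and MSN4. They came from each class: 5 of the 8 regulators and inhibitors, 3 of the 11 small stress proteins, 5 of the 9 membrane and little-known proteins tested and 1 of the 9 enzymes. RGI2 had a mean under 1 TPM and was not tested.

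Among the regulators, MSN4 (YKL062W) had 16.3, 14.0 and 15.6 TPM at 0 min, 18.4, 16.7 and 17.9 TPM at 20 min, 20.2, 18.7 and 19.9 TPM at 40 min, and 18.4 and 17.3 TPM at 60 min. The 40 min libraries were all above the 0 min ones, and MSN4 rose by 0.34 ± 0.07 (SE, adjusted p = 0.0299). MSN2 (YMR037C) had 40.3, 38.5 and 36.9 TPM at 0 min, 41.9, 39.9 and 36.6 TPM at 20 min, 40.6, 41.3 and 40.8 TPM at 40 min, and 37.8 and 41.8 TPM at 60 min. Its change at 40 min was 0.08 ± 0.06 (adjusted p = 0.433), and all its libraries in this course lay between 36.6 and 41.9 TPM. USV1, a zinc-finger transcription factor, and XBP1, a repressor of cyclin and other genes in resting cells, rose at 40 min by 0.48 ± 0.11 and 0.62 ± 0.15. TFS1, an inhibitor of carboxypeptidase Y, rose by 0.73 ± 0.16 and DCS2, an inhibitor of the scavenger decapping enzyme Dcs1, by 0.78 ± 0.17. The other regulators and inhibitors, PAI3 (inhibitor of vacuolar proteinase A) and EDC2 (an activator of mRNA decapping), had values of 0.61 and 0.23 and were not called.

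The largest change was that of DDR2, a small multistress protein first known from DNA damage. DDR2 (YOL052C-A) had 891, 930.1 and 897 TPM at 0 min, 1093, 1716 and 1872 TPM at 20 min, 2264, 2031 and 2846 TPM at 40 min, and 3170.3 and 2004 TPM at 60 min. All later libraries exceeded the 0 min ones, and the change at 40 min was 1.38 ± 0.22 (adjusted p = 0.0173). The mating pheromone gene MFA1, also a short transcript, had 487, 626 and 431 TPM at 0 min, 308, 1012 and 838 TPM at 20 min, 442, 519 and 506 TPM at 40 min, and 2059 and 665 TPM at 60 min. Its high libraries at 20 and 60 min were replicates 2 and 3 and replicate 1, which were also the higher ones of DDR2, and its 40 min libraries lay within the range of those at 0 min. What MFA1 shares with the DDR2 values at 20 and 60 min was not tested. HSP12, a small heat shock protein that stabilises membranes, had 1362, 976 and 1043 TPM at 0 min, 1477, 1048 and 1529 TPM at 20 min, 2129, 1919 and 2483 TPM at 40 min, and 2232 and 2126 TPM at 60 min. Its 20 min libraries overlapped those at 0 min and its 40 min libraries did not, with a rise of 0.96 ± 0.17 (adjusted p = 0.0223). TMA10, a ribosome-associated protein, had 376, 356 and 535 TPM at 0 min, 633, 528 and 672 TPM at 20 min, 847, 644 and 1047 TPM at 40 min, and 703 and 698 TPM at 60 min. TMA10 rose by 1.00 ± 0.19 at 40 min (adjusted p = 0.0278), with no overlap between the 40 min and 0 min libraries.

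SPG4, needed for survival in stationary phase, had 3.53, 4.93 and 2.34 TPM at 0 min, 5.23, 6.25 and 3.61 TPM at 20 min, 8.87, 8.06 and 6.77 TPM at 40 min, and 11.6 and 8.19 TPM at 60 min. It rose by 0.98 ± 0.23 at 40 min (adjusted p = 0.0474), from levels so low that the scale understates the fold. GCY1, an aldo-keto reductase of glycerol metabolism, had 28.3, 30.2 and 29.7 TPM at 0 min, 38.7, 36.9 and 38.1 TPM at 20 min, 54.6, 56.4 and 61.0 TPM at 40 min, and 53.3 and 55.0 TPM at 60 min. Its replicates lay close together, the 3 levels did not overlap between 0, 20 and 40 min, and it rose by 0.94 ± 0.06 at 40 min (adjusted p = 8.17e-05). RGI1, induced on respiratory carbon sources, had 20.5, 16.8 and 22.9 TPM at 0 min, 27.7, 28.7 and 29.2 TPM at 20 min, 39.9, 30.4 and 43.2 TPM at 40 min, and 30.5 and 30.0 TPM at 60 min. RGI1 rose by 0.88 ± 0.13 at 40 min (adjusted p = 0.0164), with all 40 min libraries above all at 0 min.

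The remaining 3 members called at 40 min were FMP45, a membrane protein of the cell cortex, with 0.81 ± 0.14, RTN2, a reticulon that curves the endoplasmic reticulum membrane, with 0.79 ± 0.11, and MOH1, of unknown function, with 0.51 ± 0.08. The 23 members tested and not called had values of -0.35 to 0.85. SPG1, a mitochondrial protein needed in stationary phase, was the only one of the 37 below 0. It had 13.1, 13.4 and 15.3 TPM at 0 min, 7.84, 11.3 and 12.1 TPM at 20 min, 11.2, 10.7 and 10.2 TPM at 40 min, and 5.34 and 10.6 TPM at 60 min. Its 40 min libraries all lay below the 0 min ones, as in 6.77% of genes, with a value of -0.35 ± 0.21 that was not called (adjusted p = 0.299).

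At 20 min no member was called by limma or by edgeR on recovered reads, and 0.0169% of genes were called higher and 0% lower. Of the 37 members 8 had an unadjusted p under 0.05 and a value above 0, against 6.53% of genes, and the median was 0.24 against 0.04 over all genes. The smallest p-values were those of GCY1 with 0.36 ± 0.06 (adjusted p = 0.184), RGI1 with 0.50 ± 0.13 (adjusted p = 0.402) and DDR2 with 0.75 ± 0.22 (adjusted p = 0.419). HSP12, MSN4 and MSN2 had values of 0.26, 0.20 and 0.03. At 60 min, with 2 libraries, GCY1 alone was called, with 0.86 ± 0.06 (adjusted p = 5.59e-04), where 0.0508% of genes were called higher. The next smallest p-values belonged to MOH1 with 0.53 ± 0.09 (adjusted p = 0.0579) and DDR2 with 1.48 ± 0.25 (adjusted p = 0.0579), and MOH1 (YBL049W) had 17.8, 19.8 and 17.8 TPM at 0 min, 22.9, 22.0 and 20.0 TPM at 20 min, 27.3, 27.8 and 25.2 TPM at 40 min, and 29.1 and 25.1 TPM at 60 min. HSP12, MSN4 and MSN2 had values of 0.97, 0.22 and 0.04 at 60 min. The median over the members was 0.45 at 60 min, against 0.08 over all genes.

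The number of members called at 40 min depended on single libraries, and no member was called lower in any of these fits. GCY1 alone was called without 0 min replicate 1, without 0 min replicate 2, without 40 min replicate 1 or without 40 min replicate 3, where 1, 2, 7 and 1 of all genes were called higher. Without 0 min replicate 3, 18 members and 8.75% of genes were called higher, against 3.54% of genes with all libraries. Over all genes the split was 209 higher and 15 lower, against 135 higher and 218 lower with the libraries shifted to a common median and 202 higher and 280 lower with edgeR on recovered reads. The members called were 10 and 15 in those fits, all higher. At 60 min 4 members were called higher and 1 lower without 60 min replicate 2, where 0.728% of genes were called higher and 0.677% lower, with the lone library assumed to vary like the other times. The members called higher there were GCY1, DDR2, HOR7 and MOH1, and SPG1 was called lower. With edgeR on recovered reads, DDR2 and HSP12 were called higher beside GCY1 at 60 min, where 0.665% of genes were.

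Light to dark. In the opposite switch stress genes rose as well. At 90 min 7 of the 37 members tested were called and all 7 were higher than at 0 min, where 1.65% of all genes were called higher and 0.306% lower. They were SIP18, GRE1, ALD3, SPG4, DDR2, RTN2 and HSP12. The median log2 change was 0.48 over the members and 0.07 over the 5884 genes tested. For 20 members all 90 min libraries were above all 0 min ones, against 11.6% of genes, and 36 members were above 0, against 67.5% of genes. Of the classes, 4 of the 11 small stress proteins, 2 of the 9 membrane and little-known proteins tested, 1 of the 9 enzymes and none of the 8 regulators and inhibitors were called.

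SIP18 and GRE1 are paralogous hydrophilins, proteins that protect cells during drying. SIP18 (YMR175W) had 29.8, 44.3 and 49.2 TPM at 0 min, 61.8, 61.5 and 36.5 TPM at 30 min, 71.8, 137 and 119 TPM at 60 min, and 120.3, 155 and 113 TPM at 90 min. The 60 and 90 min libraries did not overlap those at 0 min, and SIP18 rose by 1.65 ± 0.28 at 90 min (adjusted p = 0.0158). GRE1 (YPL223C) had 10.6, 16.5 and 12.9 TPM at 0 min, 19.6, 23.2 and 24.3 TPM at 30 min, 19.3, 33.2 and 33.9 TPM at 60 min, and 22.0, 41.2 and 55.0 TPM at 90 min. All its later libraries were above those at 0 min, and it rose by 1.42 ± 0.31 at 90 min (adjusted p = 0.0478). GRE1 was still called at 90 min in 6 of 13 alternative fits. ALD3, a cytoplasmic aldehyde dehydrogenase, had 24.2, 30.5 and 30.9 TPM at 0 min, 31.4, 40.7 and 40.8 TPM at 30 min, 39.2, 63.3 and 64.9 TPM at 60 min, and 54.9, 77.0 and 88.8 TPM at 90 min. ALD3 rose by 1.32 ± 0.22 (adjusted p = 0.0144), and its neighbour and close paralog ALD2 (YMR170C) had 0.36 ± 0.18 (adjusted p = 0.404), with the caution that reads of the 2 copies may be shared out between them.

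SPG4 (YMR107W) had 3.39, 3.15 and 6.02 TPM at 0 min, 5.42, 8.39 and 8.28 TPM at 30 min, 8.39, 9.60 and 11.2 TPM at 60 min, and 9.52, 10.4 and 12.3 TPM at 90 min. It rose by 1.21 ± 0.22 at 90 min (adjusted p = 0.0180), with 1 library at 0 min higher than the others of that time. DDR2 had 749, 921 and 863 TPM at 0 min, 1032, 858 and 1023 TPM at 30 min, 1414, 1705 and 1506 TPM at 60 min, and 1650.2, 1756 and 1655 TPM at 90 min. Its 30 min libraries overlapped those at 0 min and its 60 and 90 min libraries did not, with a rise of 1.00 ± 0.10 at 90 min (adjusted p = 8.41e-04). RTN2 (YDL204W) had 24.6, 27.4 and 27.9 TPM at 0 min, 31.3, 36.6 and 30.5 TPM at 30 min, 32.8, 44.3 and 41.8 TPM at 60 min, and 41.1, 52.4 and 53.5 TPM at 90 min. RTN2 rose by 0.85 ± 0.13 at 90 min (adjusted p = 0.0110), with all later libraries above those at 0 min.

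HSP12 (YFL014W) had 1406, 1762 and 1431 TPM at 0 min, 1929.7, 1582 and 1581 TPM at 30 min, 2507, 2272 and 1994 TPM at 60 min, and 2789, 2783 and 2573 TPM at 90 min. It rose by 0.83 ± 0.12 at 90 min (adjusted p = 0.00600). The activators themselves were not called. MSN4 had 21.8, 18.8 and 20.0 TPM at 0 min, 20.3, 21.9 and 18.7 TPM at 30 min, 17.8, 20.1 and 20.3 TPM at 60 min, and 17.4, 18.5 and 20.6 TPM at 90 min, so that its libraries overlapped between all times, with a value of -0.10 ± 0.09 at 90 min (adjusted p = 0.703). MSN2 had 40.1, 40.0 and 38.9 TPM at 0 min, 42.6, 48.9 and 38.3 TPM at 30 min, 45.3, 45.7 and 44.3 TPM at 60 min, and 44.0, 47.4 and 49.8 TPM at 90 min. Its 90 min libraries were all above those at 0 min by a small margin, with a value of 0.24 ± 0.09 (adjusted p = 0.230). Whether MSN4 changed differently between the courses was not tested.

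At 60 min DDR2 alone was called, with 0.87 ± 0.10 (adjusted p = 0.00680), where 0.272% of genes were called higher and 0.034% lower. SPG4 with 1.08 ± 0.22 (adjusted p = 0.0812) and SIP18 with 1.37 ± 0.28 (adjusted p = 0.0955) came next by p. HSP12, MSN4 and MSN2 had values of 0.56, -0.06 and 0.18. The median over the members was 0.32 at 60 min, against 0.04 over all genes. At 30 min no member was called by limma or by edgeR on recovered reads (0% of genes higher), 2 had an unadjusted p under 0.05 and a value above 0, against 1.84% of genes, and the median was 0.12 against 0.02 over all genes. The smallest p-values at 30 min were those of SPG4 with 0.71 ± 0.22, GRE1 with 0.72 ± 0.31 and RTN2 with 0.29 ± 0.13, each with an adjusted p of 1. DDR2, HSP12, MSN4 and MSN2 had values of 0.20, 0.15, 0.00397 and 0.12.

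Replicate 1 weighed on these counts. Of the members OM45, a mitochondrial outer membrane protein, had 2.05, 15.9 and 29.9 TPM at 0 min, 3.67, 24.2 and 14.2 TPM at 30 min, 5.79, 18.7 and 22.1 TPM at 60 min, and 8.57, 22.2 and 44.0 TPM at 90 min, and TMA10 (YLR327C) had 289, 723 and 937 TPM at 0 min, 427, 887 and 893 TPM at 30 min, 375, 915 and 1166 TPM at 60 min, and 726, 1079.7 and 1608 TPM at 90 min, so that replicate 1 was the lowest library at every time. Without replicate 1 at every time, a fit chosen after these values were seen, 24 members and 6.14% of genes were called higher at 90 min, and 7 members and 1.60% of genes at 60 min. With all libraries those shares of genes were 1.65% and 0.272%. Leaving out single libraries gave 11 members at 90 min without 90 min replicate 1, 6 without 0 min replicate 3, 4 without 0 min replicate 2, 3 without 0 min replicate 1, and 2 without 90 min replicate 2 or without 90 min replicate 3, in fits that called 0.544% to 2.62% of genes higher. At 60 min it gave 2 members without 60 min replicate 1, where 0.306% of genes were called higher. It also gave 2 without 0 min replicate 3, where 0.187% of genes were. DDR2 and HSP12 were called at 90 min under every alternative tried.

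Most of the other members were called in neither course. The small or secreted proteins HOR7, YGP1, DDR48, SPI1 (a cell wall protein anchored by a glycolipid), STF2 (which stabilises the inhibited mitochondrial ATPase) and FMP16 (a mitochondrial protein of unknown function) had values of 0.32 to 0.83 at 40 min of light and 0.07 to 0.93 at 90 min of dark. The membrane and organelle proteins PHM7, MSC1 and OM45 had values of 0.55 to 0.85 and 0.60 to 0.88 at these times. The enzymes ALD2, HXK1, GRE3, PNC1, PST2, GRE2 and GLK1, a glucokinase, had values of 0.34 to 0.64 and 0.23 to 0.48. All of them were above 0 at both times. PAI3, EDC2 and SPG1, not called after light, had 1.16 ± 0.46, 0.39 ± 0.15 and 0.39 ± 0.44 at 90 min of dark and were not called there.

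**Figure D2:**
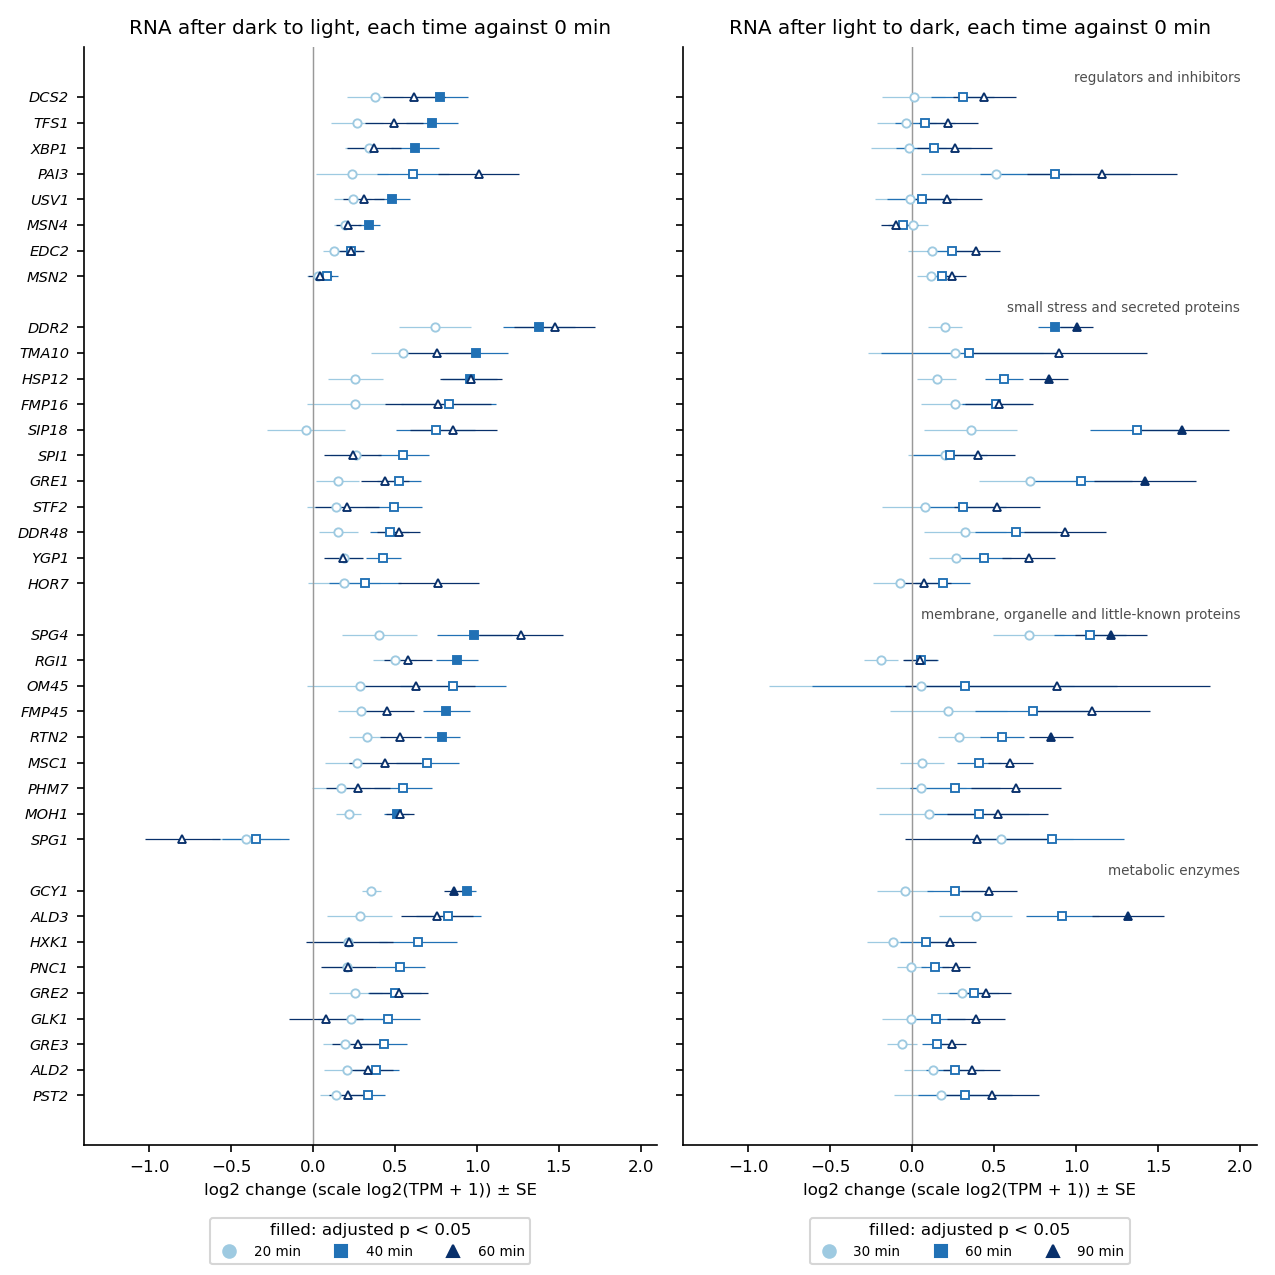
Log2 change in RNA (x axis, scale log2(TPM + 1), bars ± SE) of the 37 members tested, at each time against 0 min, after dark to light (left) and light to dark (right). Points lie mostly right of 0 in both panels, with medians over the members of 0.55 at 40 min of light and 0.48 at 90 min of dark, and SPG1 lies left of 0 after light.

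The switches were opposite, and members called at 40 min of light and at 90 min of dark were all higher than at 0 min. DDR2, HSP12, RTN2 and SPG4 were called higher both at 40 min of light and at 90 min of dark. At 40 min of light SPG4 was still called in 3 of 12 alternative fits, and DDR2, HSP12 and RTN2 in 8 of 12 each. At 90 min of dark SPG4 was still called in 9 of 13 and RTN2 in 11 of 13. The other 10 members called after light had values of -0.10 to 1.10 at 90 min of dark, the lowest being MSN4 and the highest FMP45. SIP18, GRE1 and ALD3, called after dark, had values of 0.75, 0.52 and 0.83 at 40 min of light. RGI1 (YER067W) had 0.88 ± 0.13 at 40 min of light and 0.05 ± 0.10 at 90 min of dark, and GCY1 (YOR120W) had 0.94 ± 0.06 and 0.47 ± 0.17. The courses were deposited as separate tables, and differences between their changes were not tested.

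**Figure D3:**
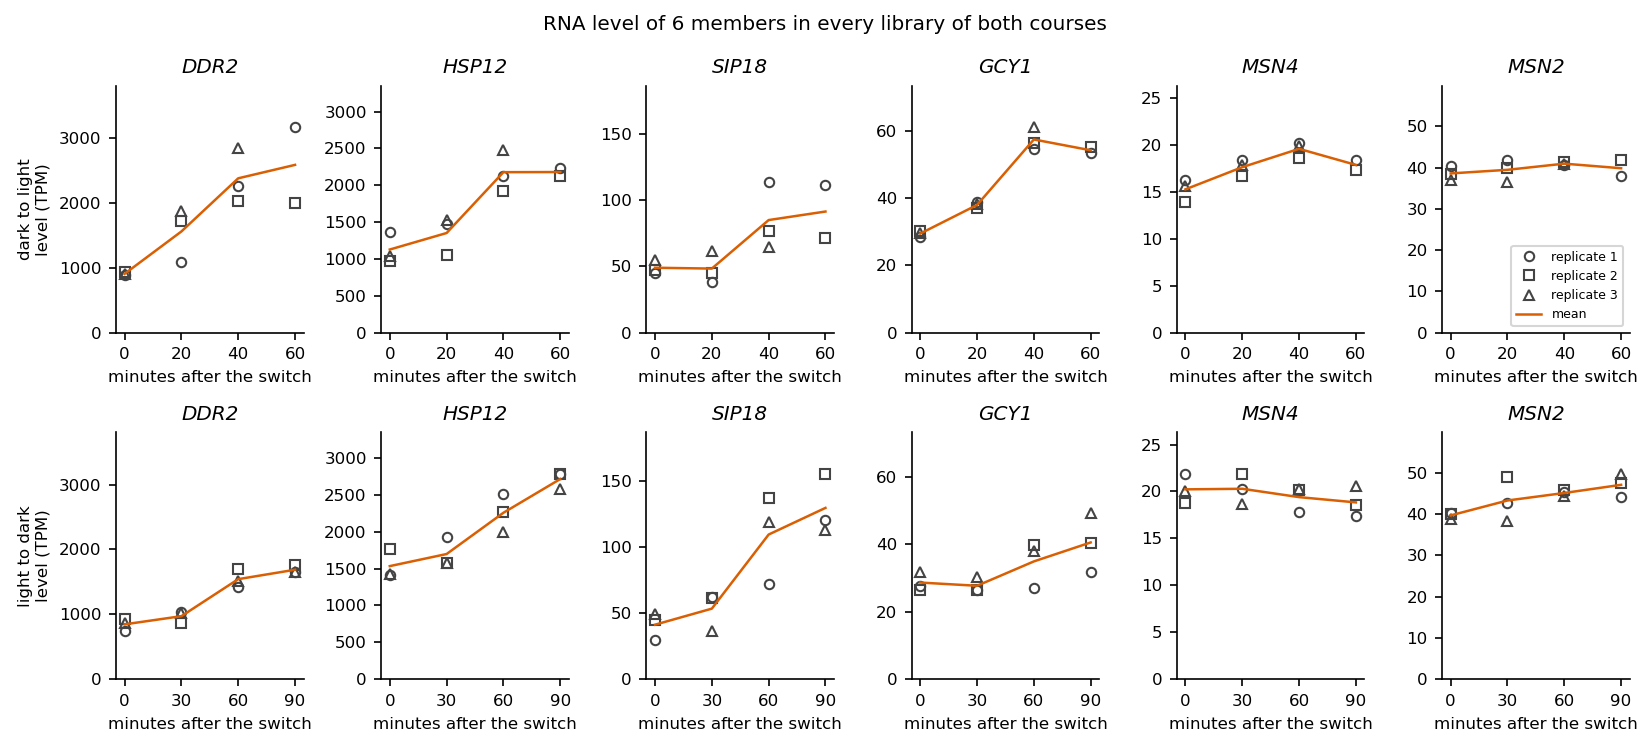
RNA level in TPM (y axis from 0) of 6 members in every library against minutes after the switch (x axis), dark to light above and light to dark below, with symbols for replicates and a line through the means. DDR2 and HSP12 lie higher at the last times in both rows, GCY1 mainly in the upper row, and MSN2 stays between 36.6 and 49.8 TPM throughout.

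In the constant state before the switch, the 2 abundant stress genes had these levels. DDR2 had 749, 921 and 863 TPM in cells kept in light and 891, 930.1 and 897 TPM in cells kept in dark, and HSP12 had 1406, 1762 and 1431 TPM in light and 1362, 976 and 1043 TPM in dark. These values stand side by side without a test because they come from separate tables. The most abundant member was HOR7, a paralog of DDR2, with 13234, 12522 and 13985 TPM at 0 min, 11782, 16727 and 17376 TPM at 20 min, 17381, 15291 and 16869 TPM at 40 min, and 31581 and 16016 TPM at 60 min in the dark-to-light course. Its 60 min libraries differed by a wide margin, with replicate 1 the higher as in DDR2 and MFA1, and it was not called at any time with all libraries.

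By number of AGGGG matches the RNA changes of the members had overlapping ranges. At 40 min of light the median was 0.39 for the 7 tested members with none, 0.67 for the 10 with 1 and 0.63 for the 20 with 2 or more. At 90 min of dark these medians were 0.39, 0.58 and 0.42. They describe members of the same libraries and carry no test.

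The authors' deposited tables list genes with an adjusted p under 0.05. In all 1654 genes listed there and fitted here, the sign of the fold change in the authors' deposited tables was opposite to the difference in TPM. Those values are therefore read as 0 min over the later time. The comparisons are named with the later time first, as in 40 min vs 0 min. Read as later time over 0 min, that order of names goes against this reading. The sources used here do not otherwise state the direction. The directions given here rest on the time labels of the TPM columns. Members listed in the authors' deposited tables numbered 1, 21 and 12 at 20, 40 and 60 min of light, among 88, 687 and 445 genes listed. At 30, 60 and 90 min of dark the authors' deposited tables list 0, 8 and 13 members, among 14, 117 and 313 genes. At 40 min of light 13 of the 14 members called here were among the 21, all with a negative sign, and at 90 min of dark all 7 were among the 13. In the authors' deposited table DDR2 had -0.57 at 40 min of light and -0.66 at 90 min of dark. These tables were made from the same libraries and are not independent evidence.

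A list of 28 genes, mainly from the left-out families (reserve carbohydrate, pentose phosphate, chaperone and peroxide defence), was set beside the members. It also held GAD1 and GLO1, which are of none of these families, and was chosen with earlier results of these data known. At 40 min of light 16 of 28 were called higher, against 3.54% of all genes, and none lower, with a median of 0.64 against 0.10. At 90 min of dark 2 of 28 were called higher, against 1.65% of all genes, with a median of 0.40 against 0.07. The smallest p-values at 40 min were those of SOL4, a 6-phosphogluconolactonase, with 1.06 ± 0.14, and GND2, a 6-phosphogluconate dehydrogenase, with 0.70 ± 0.09. At 90 min of dark they were those of TKL2, a transketolase, with 1.48 ± 0.14, and GTT1, a glutathione transferase, with 0.67 ± 0.13. At 20 and 60 min of light 0 and 1 were called higher, against 0.0169% and 0.0508% of all genes, with medians of 0.27 and 0.40. At 30 and 60 min of dark 0 and 1 were, against 0% and 0.272%, with medians of 0.01 and 0.24.

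Ribosome biogenesis genes, which growing cells express strongly and stressed cells turn down, lay on the other side of 0 after light. At 40 min all 25 had values below 0, where 75.1% of all genes were above 0, with a median of -0.18 against 0.10. Of the list 2 were called lower, against 0.254% of all genes. They were RLP7 with -0.23 ± 0.05 and NSR1 with -0.41 ± 0.10, both ribosome assembly factors. At 20 and 60 min of light none was called and the medians were -0.13 and -0.09. At 30, 60 and 90 min of dark none was called and the medians were 0.08, 0.03 and -0.03. Another list held 28 genes of protein kinase A, TOR, Snf1 and Hog1 signalling and factors that act on or beside Msn2 and Msn4. At 40 min of light 3 of them were called higher, against 3.54% of all genes, with a median of 0.15 against 0.10. The smallest p-values were in GIS1, which binds the post-diauxic shift element, with 0.39 ± 0.06, and PDE1, a cyclic AMP phosphodiesterase, with 0.34 ± 0.06. At 90 min of dark 1 was called lower, against 0.306% of all genes, with a median of 0.08 against 0.07. It was RAS1, a GTPase that activates adenylate cyclase, with -0.61 ± 0.07. None of them was called at the other 4 times, where the medians were between 0.0036 and 0.11.

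Loss of Rph1. In YPD a subset of the stress genes was higher without Rph1. Of the 35 members with enough counts 9 were called higher and 2 lower in rph1Δ (edgeR quasi-likelihood test, adjusted p under 0.05), where 9.46% of the 6088 genes tested were called higher and 2.83% lower. The median log2 fold change was 0.17 over the 35 members and -0.01 over all genes, and 27 of the 35 were above 0, against 47.3% of genes. With single libraries left out the member median ran from 0.09 to 0.20. WT replicate 3 stood apart. Of 36 members with a mean of at least 1 TPM, 4 lay above their mean over these libraries there, against 16 and 16 in WT replicates 1 and 2. In rph1Δ replicates 1, 2 and 3 these counts were 22, 32 and 17. Libraries did not overlap in 9 members with rph1Δ higher, against 16.7% of genes, and in 2 with rph1Δ lower, against 9.17%. RGI2, SPG4 and SPG1 had too few counts for the test.

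YGP1, a secreted cell wall glycoprotein induced on nutrient limitation, had 162, 166 and 146 TPM in rph1Δ against 85.9, 80.5 and 78.2 TPM in WT. The groups stood far apart, with a log2 fold change of 0.94 ± 0.04 (adjusted p = 5.47e-10). DDR48, a DNA damage-responsive protein, had 61.0, 65.5 and 66.4 TPM in rph1Δ against 44.9, 40.5 and 38.4 TPM in WT. It too had no overlap, with 0.63 ± 0.05 (adjusted p = 5.52e-07). The remaining rises were smaller.

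TFS1 (YLR178C) had 30.1, 28.7 and 26.2 TPM in rph1Δ against 17.7, 23.0 and 19.7 TPM in WT, a rise of 0.48 ± 0.10 (adjusted p = 0.00314). EDC2 (YER035W) had 42.6, 48.8 and 40.8 TPM in rph1Δ against 37.8, 34.7 and 31.0 TPM in WT, a rise of 0.34 ± 0.10 (adjusted p = 0.0270). The lowest rph1Δ library of each lay above the highest WT library. ALD2 had 6.17, 6.20 and 6.46 TPM in rph1Δ against 5.19, 4.76 and 4.93 TPM in WT, a rise of 0.33 ± 0.09 (adjusted p = 0.0218), and GRE3, an aldose reductase, had 55.2, 53.8 and 50.7 TPM in rph1Δ against 42.5, 46.4 and 43.5 TPM in WT, a rise of 0.26 ± 0.05 (adjusted p = 0.00274). The other 3 called higher were PNC1, a nicotinamidase, with 0.19 ± 0.05, PST2, a flavodoxin-like protein, with 0.19 ± 0.05, and GRE2, a methylglyoxal reductase, with 0.17 ± 0.05. The groups overlapped in GRE2. Of 10 alternative fits, GRE2 was no longer called in 6, EDC2 in 5, ALD2 in 3, PNC1 in 2 and PST2 in 1. YGP1, DDR48, TFS1 and GRE3 were called in all 10. With single libraries left out 6 to 9 members were called higher, where 6.98% to 8.52% of genes were.

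The 2 members called lower were HXK1, a hexokinase, and PHM7, a membrane protein of unknown function. HXK1 (YFR053C) had 23.5, 23.1 and 23.9 TPM in rph1Δ against 29.0, 27.9 and 28.0 TPM in WT, a fall of -0.28 ± 0.05 (adjusted p = 8.50e-04). PHM7 (YOL084W) had 0.308, 0.613 and 0.486 TPM in rph1Δ against 0.773, 0.797 and 0.755 TPM in WT, a fall of -0.71 ± 0.20 (adjusted p = 0.0300) at levels of under 1 TPM. The groups did not overlap in either gene. PHM7 was not called without rph1Δ replicate 1, without rph1Δ replicate 3, without WT replicate 2, without WT replicate 3 or with the DESeq2 test, while HXK1 was called in each of these, where 98 to 124 of all genes were called lower.

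DDR2, HSP12, MSN2 and MSN4 were not called with all libraries in the fit without replicate number. DDR2 had 59.3, 98.4 and 109 TPM in rph1Δ against 115, 118 and 61.6 TPM in WT, with -0.07 ± 0.30 (adjusted p = 0.920). HSP12 had 126, 212 and 114 TPM in rph1Δ against 278, 352 and 104 TPM in WT, with -0.69 ± 0.29 (adjusted p = 0.136). WT replicate 3 was the lowest library of WT for both genes, and the groups overlapped. Without WT replicate 3, HSP12 was called lower, with -1.08 ± 0.15 (adjusted p = 3.90e-05). With all libraries and replicate number as a block in edgeR, HSP12 was also called lower, with -0.63 ± 0.15 (adjusted p = 0.0147). In that fit 2.47% of genes were called lower. MSN2 had 20.2, 21.7 and 19.5 TPM in rph1Δ against 20.3, 18.2 and 17.0 TPM in WT, with 0.13 ± 0.05 (adjusted p = 0.122), and MSN4 had 8.67, 9.68 and 9.04 TPM in rph1Δ against 9.54, 7.85 and 9.40 TPM in WT, with 0.02 ± 0.08 (adjusted p = 0.922). Without WT replicate 1, MSN2 was called higher, with 0.19 ± 0.05 (adjusted p = 0.0279).

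Over all genes 9.46% were called higher and 2.83% lower in rph1Δ, with a median of -0.01. Among the signalling genes and factors around Msn2 and Msn4, 11 of 28 were called higher and 1 lower, with a median of 0.09. BCY1, the regulatory subunit of protein kinase A, had 0.39 ± 0.04. Of the 28 left-out stress genes 6 were called higher, with a median of 0.05, GTT1 with 1.16 ± 0.06 and the mitochondrial superoxide dismutase SOD2 with 0.46 ± 0.05 among them. No ribosome biogenesis gene of 25 was called by edgeR, 1 had an unadjusted p under 0.05, and the median was 0.01.

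**Figure D4:**
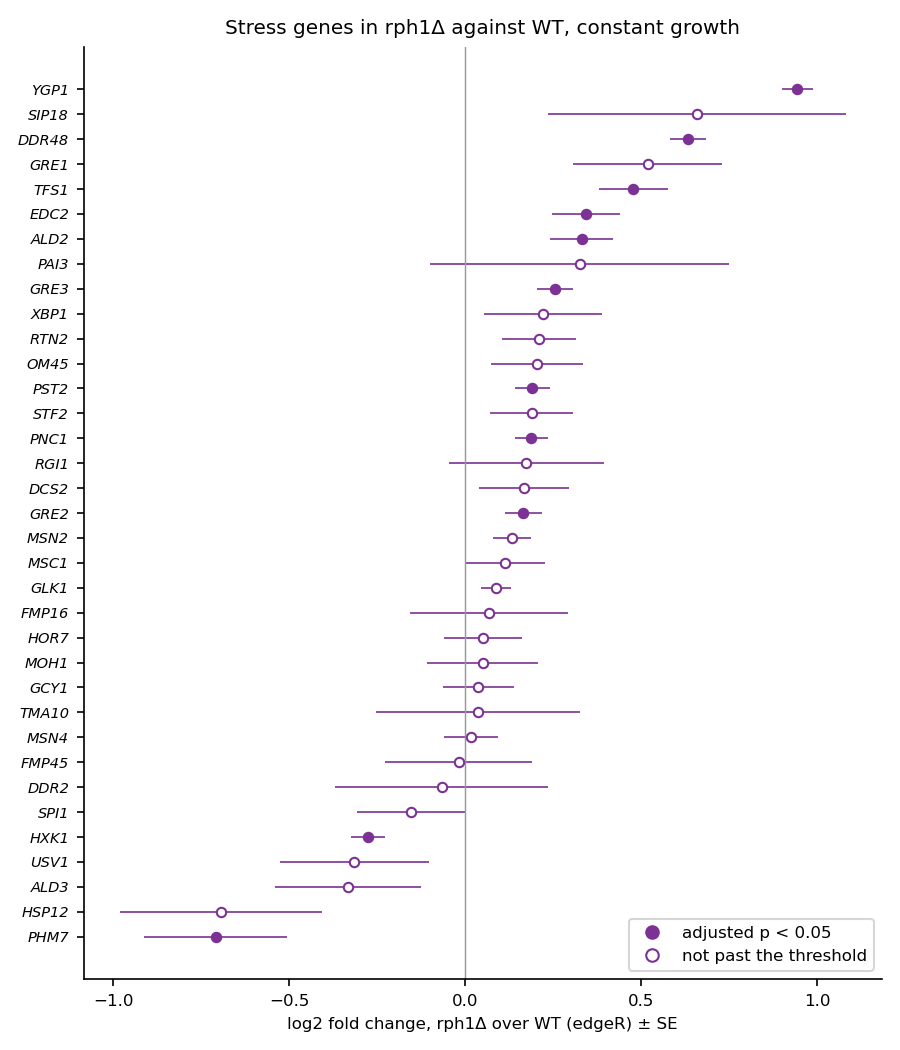
Log2 fold change of rph1Δ over WT (x axis, edgeR, bars ± SE, n = 3 each) for the 35 members tested, ordered by value, with filled points past the threshold. YGP1 stands highest at 0.94 and PHM7 lowest at -0.71, and most points lie right of 0.

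H3K36me3 over the stress genes. The mark was gained in light and lost in dark over the stress genes, as over nearly all genes, with the sign of many slopes different once libraries are divided by their median, when a slope is relative to the median gene. From 0 to 60 min of light the deposited signal, whose unit is not stated, was multiplied by a median of 3.92 over the 32 members with a value (range 2.42 to 7.28), against 4.02 over all genes. In the dark the signal at 90 min was a median of 0.554 times that at 0 min in cells without Rph1 and 0.467 times in cells with Rph1, against 0.534 and 0.437 over all genes. These ratios of means carry no test. GCY1, DDR48, HXK1, GLK1, RGI1 and GRE2 have no value in these tables as used here.

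The median member carried less of the mark than the median gene. Before the switch to dark, in cells without Rph1, the median member was at 0.0991 ± 0.0131 (SD, n = 3 libraries) and the median gene at 0.196 ± 0.0420. In cells with Rph1 the median member was at 0.0456 ± 0.00421 and the median gene at 0.105 ± 0.0132, and 30 of the 32 members were below the median gene. Members under the 10th percentile of mean signal, which were not tested, numbered 10 of 32 in the dark-to-light course, 11 in the light-to-dark course without Rph1 and 13 in that with Rph1. The signal rose with gene length across the 5242 genes with a known length (Spearman's rho 0.51, a description over genes of the same libraries), and whether it is scaled by length is not stated. The 13 members under that level had a median length of 447 bases, the 19 above it 1065 bases and all genes 1188 bases, and the part of length in these low values was not tested. Above the median gene with Rph1 were MSN2, with 0.399, 0.461 and 0.400 before the switch, and YGP1.

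**Figure D5:**
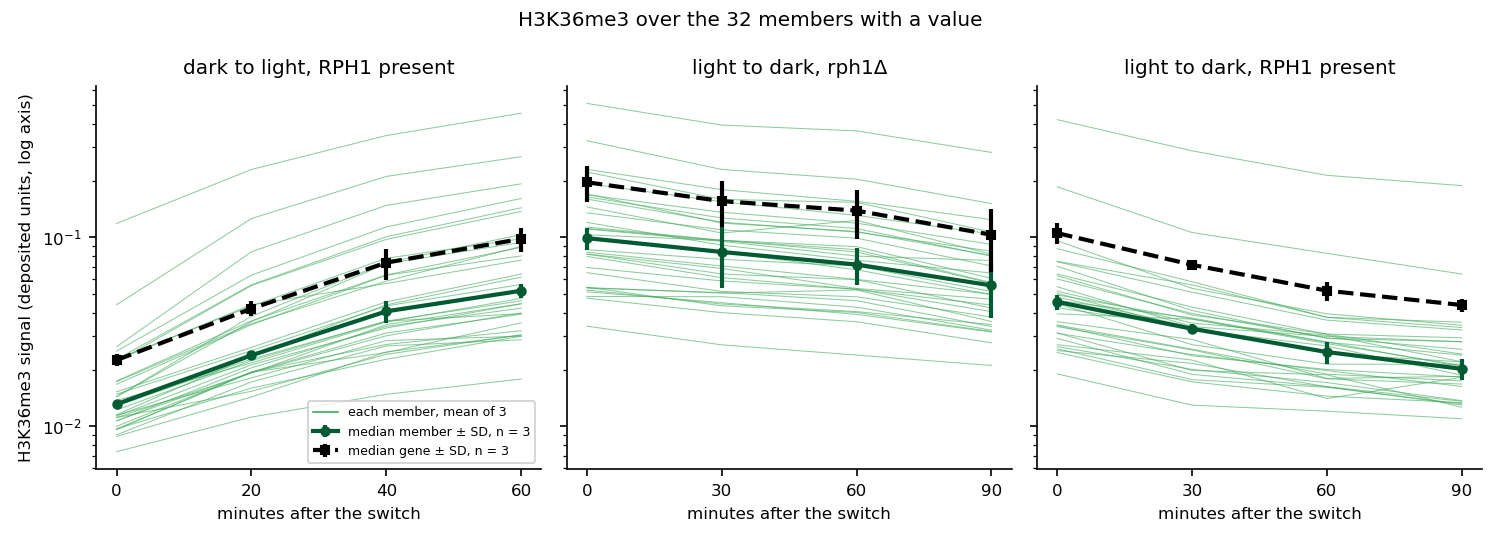
H3K36me3 signal (y axis, log, deposited units) against minutes after the switch (x axis) for 32 members (thin lines), the median member (circles) and the median gene (squares), mean ± SD of 3 libraries. The median member lies below the median gene at every time, at 0.0522 against 0.0983 after 60 min of light.

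Slopes per hour were fitted on the log2 of the signal plus 0.1 times the table median. In light all 22 members tested gained the mark (adjusted p under 0.05), where 99.9% of genes did and 0% lost it, with a median slope of 1.96 over the members and 1.87 over the 4816 genes. Relative to the median gene, with each library divided by its median, 9 members had a positive slope past the threshold and 4 a negative one, against 14.5% and 31.4% of genes. The steepest were PNC1, PAI3, YGP1, MSC1, OM45 and DCS2. PNC1 (YGL037C) had 0.0222, 0.0309 and 0.0261 at 0 min, 0.0830, 0.0744 and 0.0947 at 20 min, 0.132, 0.147 and 0.164 at 40 min, and 0.165, 0.195 and 0.217 at 60 min. That is a slope of 2.61 ± 0.21 per hour, with no overlap between times. PAI3 (YMR174C) had 0.0127, 0.0137 and 0.0166 at 0 min, 0.0339, 0.0355 and 0.0455 at 20 min, 0.0610, 0.0757 and 0.0836 at 40 min, and 0.0975, 0.0987 and 0.114 at 60 min, a slope of 2.49 ± 0.17, and YGP1 (YNL160W) had 0.0389, 0.0453 and 0.0479 at 0 min, 0.111, 0.114 and 0.152 at 20 min, 0.174, 0.210 and 0.248 at 40 min, and 0.230, 0.262 and 0.310 at 60 min, a slope of 2.43 ± 0.22. Both gained the mark in every replicate.

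MSC1, a little-known membrane protein, had 0.0252, 0.0259 and 0.0239 at 0 min, 0.0585, 0.0620 and 0.0690 at 20 min, 0.0913, 0.124 and 0.126 at 40 min, and 0.125, 0.174 and 0.184 at 60 min, a slope of 2.43 ± 0.19. OM45 (YIL136W) had 0.0182, 0.0277 and 0.0221 at 0 min, 0.0503, 0.0545 and 0.0636 at 20 min, 0.0803, 0.110 and 0.112 at 40 min, and 0.122, 0.157 and 0.151 at 60 min, a slope of 2.42 ± 0.19, and DCS2 (YOR173W) had 0.0123, 0.0177 and 0.0133 at 0 min, 0.0347, 0.0320 and 0.0410 at 20 min, 0.0585, 0.0775 and 0.0819 at 40 min, and 0.0788, 0.0978 and 0.106 at 60 min, a slope of 2.38 ± 0.17. These members started low and ended high in each replicate. DDR2 had 0.0111, 0.0141 and 0.0134 at 0 min, 0.0243, 0.0194 and 0.0245 at 20 min, 0.0337, 0.0323 and 0.0422 at 40 min, and 0.0406, 0.0392 and 0.0387 at 60 min, with the shallowest slope of the 22, 1.35 ± 0.15. MSN2 had 0.102, 0.123 and 0.130 at 0 min, 0.208, 0.217 and 0.261 at 20 min, 0.278, 0.333 and 0.428 at 40 min, and 0.374, 0.449 and 0.540 at 60 min, a slope of 1.87 ± 0.20 from the highest level of any member. MSN4 had a slope of 1.79 ± 0.15, and HSP12, not tested for its low level, had 0.0111, 0.00906 and 0.00892 at 0 min, 0.0185, 0.0143 and 0.0151 at 20 min, 0.0219, 0.0223 and 0.0237 at 40 min, and 0.0321, 0.0275 and 0.0303 at 60 min.

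In the dark 20 of 21 members tested lost the mark in cells without Rph1, where 97.4% of genes did, with a median slope of -0.52 over the members and -0.55 over all genes. In cells with Rph1 all 19 members tested lost it, where 99.6% of genes did, with medians of -0.70 and -0.75. Relative to the median gene limma called no member in either course, with 2 members at an unadjusted p under 0.05 without Rph1 and 3 with Rph1. Without Rph1 0 of 4815 genes then had a positive slope past the threshold and 20 a negative one, against 313 and 213 of 4813 genes with Rph1. HOR7 was the member not called without Rph1, with -0.34 ± 0.19 (adjusted p = 0.0677). With replicate number as a block in the fit it was called lower, where 98.5% of genes were. Without replicate 2 of the course that lacks Rph1, limma called 0 of 20 members there (6 at an unadjusted p under 0.05) and 0.0623% of genes lower. As single replicates of that course were left out, the members called ran from 0 to 22 and the genes from 3 to 4718 of 4815. In the course with Rph1, 19 members were called with any replicate left out. Nearly all genes were called lower there too, 4779, 4767 and 4808 of 4813 without replicates 1, 2 and 3 in turn.

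YGP1 had 0.296, 0.273 and 0.405 at 0 min, 0.169, 0.209 and 0.309 at 30 min, 0.169, 0.163 and 0.278 at 60 min, and 0.112, 0.123 and 0.218 at 90 min without Rph1. With Rph1 it had 0.168, 0.224 and 0.164 at 0 min, 0.1000, 0.116 and 0.103 at 30 min, 0.0682, 0.0953 and 0.0837 at 60 min, and 0.0610, 0.0760 and 0.0550 at 90 min. These are slopes of -0.68 ± 0.17 without and -0.94 ± 0.10 with Rph1, the steepest of the members tested in each course. PNC1 had 0.182, 0.191 and 0.293 at 0 min, 0.133, 0.145 and 0.199 at 30 min, 0.125, 0.120 and 0.215 at 60 min, and 0.0781, 0.0813 and 0.161 at 90 min without Rph1. With Rph1 it had 0.0825, 0.122 and 0.0840 at 0 min, 0.0481, 0.0616 and 0.0516 at 30 min, 0.0386, 0.0395 and 0.0401 at 60 min, and 0.0330, 0.0344 and 0.0355 at 90 min. PNC1 had slopes of -0.62 ± 0.18 without and -0.86 ± 0.10 with Rph1, and the levels of the 2 courses come from separate tables and are not compared.

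OM45 had 0.141, 0.155 and 0.194 at 0 min, 0.110, 0.116 and 0.154 at 30 min, 0.105, 0.0869 and 0.143 at 60 min, and 0.0638, 0.0652 and 0.110 at 90 min without Rph1. With Rph1 it had 0.0715, 0.0790 and 0.0606 at 0 min, 0.0413, 0.0456 and 0.0363 at 30 min, 0.0262, 0.0334 and 0.0280 at 60 min, and 0.0227, 0.0313 and 0.0303 at 90 min. OM45 had slopes of -0.60 ± 0.19 without and -0.78 ± 0.11 with Rph1, and its 90 min libraries were below all those at 0 min in each course. MSC1 (YML128C) had 0.215, 0.212 and 0.261 at 0 min, 0.148, 0.175 and 0.214 at 30 min, 0.124, 0.138 and 0.204 at 60 min, and 0.0934, 0.109 and 0.170 at 90 min without Rph1. With Rph1 it had 0.0811, 0.101 and 0.0791 at 0 min, 0.0530, 0.0631 and 0.0588 at 30 min, 0.0326, 0.0392 and 0.0415 at 60 min, and 0.0323, 0.0385 and 0.0360 at 90 min. MSC1 had slopes of -0.55 ± 0.18 without and -0.80 ± 0.09 with Rph1.

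Without Rph1 the other members among the 6 steepest were DCS2 and GRE3. DCS2 had 0.162, 0.163 and 0.185 at 0 min, 0.0949, 0.109 and 0.153 at 30 min, 0.0928, 0.101 and 0.129 at 60 min, and 0.0643, 0.0704 and 0.106 at 90 min, a slope of -0.62 ± 0.19. GRE3 (YHR104W) had 0.168, 0.167 and 0.244 at 0 min, 0.123, 0.143 and 0.198 at 30 min, 0.108, 0.104 and 0.181 at 60 min, and 0.0726, 0.0894 and 0.151 at 90 min, a slope of -0.55 ± 0.18. The last times were below the first in both. With Rph1 they were RTN2, with 0.0549, 0.0667 and 0.0705 at 0 min, 0.0383, 0.0434 and 0.0467 at 30 min, 0.0252, 0.0295 and 0.0375 at 60 min, and 0.0191, 0.0277 and 0.0256 at 90 min and a slope of -0.81 ± 0.10, and MSN2, with 0.399, 0.461 and 0.400 at 0 min, 0.285, 0.293 and 0.284 at 30 min, 0.183, 0.242 and 0.214 at 60 min, and 0.170, 0.202 and 0.191 at 90 min and a slope of -0.77 ± 0.08. MSN2 lost the mark without Rph1 with a slope of -0.54 ± 0.16, and MSN4 had slopes of -0.54 ± 0.19 without and -0.72 ± 0.08 with Rph1.

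DDR2 had 0.0667, 0.0883 and 0.0900 at 0 min, 0.0532, 0.0623 and 0.0901 at 30 min, 0.0461, 0.0485 and 0.0665 at 60 min, and 0.0352, 0.0503 and 0.0560 at 90 min without Rph1. With Rph1 it had 0.0378, 0.0335 and 0.0469 at 0 min, 0.0345, 0.0418 and 0.0346 at 30 min, 0.0218, 0.0286 and 0.0333 at 60 min, and 0.0175, 0.0298 and 0.0243 at 90 min. The slopes of -0.45 ± 0.18 without and -0.44 ± 0.10 with Rph1 were close to each other, and that with Rph1 was the shallowest of the 19. HSP12, not tested, had 0.0231, 0.0324 and 0.0400 at 90 min and 0.0465, 0.0454 and 0.0715 at 0 min without Rph1, and 0.0134, 0.0134 and 0.0127 at 90 min and 0.0282, 0.0226 and 0.0264 at 0 min with Rph1.

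The difference between these slopes, without Rph1 minus with Rph1, was above 0 for 18 of the 19 members tested, with a median of 0.18 against 0.20 over the 4712 genes, of which 97.7% were above 0. The courses come from separate tables, so a scaling of the tables that changed with time would enter these values. In the fit without replicate number none of the 19 was called by limma, and 0% of all genes were. None of the 19 had an unadjusted p under 0.05, against 2.53% of genes. The smallest p-values were those of HOR7, RTN2 with 0.29 ± 0.20 and MSN2 with 0.23 ± 0.17, each with an adjusted p of 0.547. The values ran from -0.01 ± 0.19 for DDR2 to 0.31 ± 0.20 for HOR7, and MSN4 had 0.18 ± 0.19. These results depended on the fit. With replicate number as a block, limma called 5 members higher (RTN2, HOR7, YGP1, MSC1 and MSN2) and 43.6% of all genes. In the lists beside the members, all 26 signalling genes and factors tested gained the mark in light and lost it in dark. So did all left-out stress genes and all ribosome biogenesis genes tested. Of all genes 99.9% gained it in light, and 97.4% without Rph1 and 99.6% with Rph1 lost it in dark.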

How the data were processed

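RNA-seq and H3K36me3 ChIP-seq of budding yeast were taken from the deposited tables; 29 RNA and 36 ChIP libraries of 134 samples were used, and the other 69 were not analysed here. For rph1Δ and WT the authors deposited estimated counts per gene beside TPM (transcript abundance scaled to length and depth), and for the courses TPM alone. The submitters' processing notes name Salmon 0.8.1, STAR, cutadapt 1.12, R 3.3.1 and DESeq2 1.14.1 and the builds sacCer3 and ASM294v2, without saying which made which file. The authors also deposited log2 fold changes with p-values and adjusted p-values, in tables that list genes with an adjusted p under 0.05, per the file headers. The ChIP tables as deposited hold 1 H3K36me3 signal per gene and library; spike-in chromatin of Schizosaccharomyces pombe was added per the labels, and how the signal was scaled is not given in the sources used here.

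Counts, all whole within 0.001, were tested with edgeR 4.0.16 (TMM scaling, quasi-likelihood). Each course was fitted alone with limma 3.58.1, with time as a factor, after TPM were raised by 1 and put on the log2 scale; genes needed a mean of at least 1 TPM. Such a fold understates the change of low genes. TPM values were whole multiples of 1 read for 100% of low values checked (within 0.05), and edgeR on these recovered reads called 202 genes higher and 280 lower after 40 min in light, and 163 higher and 32 lower after 90 min in dark. H3K36me3 slopes per hour came from limma on the log2 scale, with 0.1 times the table median added to the signal; genes under the 10th percentile of mean signal were left out. P-values were adjusted over all genes by Benjamini-Hochberg, with a threshold of 0.05, in R 4.3.3; DESeq2 1.42.0 was an alternative. The procedures were tested on simulated data. Other alternatives were filters, pseudocounts, scaling and leaving out libraries.

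Promoters were read from the RefSeq R64 genome and annotation, for which all 38 members matched by gene ID. The members and lists were chosen with earlier results of these data known. Values in every library are given, per comparison, for up to 6 members with the largest rise and 6 with the largest fall among those past the threshold whose libraries did not overlap, or else for the 3 with the smallest p, and MSN2, MSN4, DDR2 and HSP12 are described throughout; of each list up to 2 genes with the smallest p past the threshold are named. A gene that this rule would name is not reported here.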

Additional observations from a re-analysis of the deposited data

How the results depend on the processing

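For members called in the tests described above, 879 values under an alternative were compared. Of these 699 kept direction and side of the threshold, 143 were no longer past it and 37 changed sign. Members called only under an alternative are not among the 879. Whether replicate numbers pair the libraries was not settled. The lowest correlation between same-numbered libraries was -0.06 for rph1Δ and WT. It was -0.07 and 0.03 in the dark-to-light and light-to-dark RNA courses. In the H3K36me3 courses (dark to light, light to dark, light to dark without Rph1) it was -0.02, -0.26 and -0.17. In the same order the medians were -0.02, 0.16, 0.29, 0.18, 0.14 and 0.18. Between libraries of different numbers they were 0.01, -0.08, -0.16, -0.11, -0.05 and -0.09. A correlation over genes cannot show a shift shared by all genes of a library. Closest to a library of their own number were 1 of 6, 8 of 11, 10 of 12, 12 of 12, 8 of 12 and 10 of 12 libraries, a hint from the data and not the design. With the replicate number as a block the members called higher were 32 and 18 at 40 and 60 min of light, where 651 and 281 of 5907 genes were, 11 and 23 at 60 and 90 min of dark, where 135 and 640 of 5884 genes were, and 5 for the difference of slopes (RTN2, HOR7, YGP1, MSC1 and MSN2), for which 2055 genes (43.6%) were called higher and 1 lower. Under the block HSP12 was called lower in rph1Δ and HOR7 lost H3K36me3 in the dark without Rph1. Other counts beyond 1.5 times were 1 member lower in rph1Δ with the DESeq2 test, 3 at 60 min of light and 5 at 60 min of dark with edgeR on recovered reads (0.665% and 0.688% of genes), 4 at 60 min of dark with libraries shifted to a common median (0.595% of genes), and 7 and 24 at 60 and 90 min of dark without replicate 1 at every time (1.60% and 6.14% of genes), a fit chosen after seeing the data. Leaving out single libraries gave 1 to 18 members higher at 40 min of light, 1 to 4 higher and 0 to 1 lower at 60 min of light, 1 to 7 at 60 min and 2 to 24 at 90 min of dark (these ranges include the fit without replicate 1), 1 to 2 lower in rph1Δ, 0 to 22 losing H3K36me3 without Rph1, and a median slope of -0.71 to -0.68 with Rph1. The cause was not tested.

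The median H3K36me3 slope over the members in light was 1.00 with a pseudocount at the table median, 2.19 with 0.01 times that median and 1.64 with no filter on low values. In dark it was -0.23 with the first pseudocount without Rph1, and -0.30, -0.80 and -0.60 with Rph1, where 32 members were called lower with no filter because more were tested. The difference of slopes had a median of 0.076 with that pseudocount. With each library divided by its median, slopes are relative to the median gene by construction: the medians were 0.067 in light, 0.025 in dark without Rph1, 0.031 with and -0.015 for the difference, with 9 members higher and 4 lower in light and 0 lower in dark without Rph1 and 0 with (limma; 2 and 3 at an unadjusted p under 0.05). Values that changed sign there were, in light, -0.40 for DDR2, -0.066 for TMA10, -0.15 for PHM7, -0.23 for MSN2, -0.044 for MSN4, -0.11 for USV1, -0.15 for MOH1, -0.18 for ALD2, -0.0081 for STF2, -0.42 for EDC2 and -0.28 for PST2. In dark without Rph1 they were 0.049 for DDR2, 0.090 for PHM7, 0.025 for RTN2, 0.0086 for MSC1, 0.048 for MSN2, 0.0032 for MSN4, 0.012 for USV1, 0.026 for MOH1, 0.041 for ALD3, 0.029 for PAI3, 0.091 for STF2, 0.029 for EDC2 and 0.085 for PST2. In dark with Rph1 they were 0.26 for DDR2, 0.085 for PHM7, 0.047 for HOR7, 0.017 for DCS2, 0.065 for XBP1, 0.062 for MSN2, 0.031 for MSN4, 0.023 for MOH1, 0.023 for GRE3, 0.052 for ALD3, 0.12 for PAI3, 0.11 for STF2 and 0.18 for EDC2. Low levels kept RGI2 out of the course tests and 10 to 13 members out of the H3K36me3 tests.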
